A study of Drosophila melanogaster with 2 samples.

Results

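The ecdysone response and nuclear receptor genes EcR, usp, br, Eip75B, Eip74EF, ftz-f1, Hr38, Hr39 and Hr78 were described by the ChIP-seq peaks of tagged Fer3 in and around them. They are 9 of 13968 protein-coding genes on the chromosome arms. The rule that lists them uses no peak values, but the members were chosen with earlier results of these data known. Every peak with its summit in one of these genes or within 5 kb of it was taken, which gave 35 of the 5636 reproducible peaks. The study profiled a single group of 2 biological replicates, from separate biosamples. Both were whole Drosophila melanogaster embryos at 6 to 24 h, of a transgenic line that stably carries Fer3 with GFP at its C terminus. Fer3 is a basic helix-loop-helix transcription factor, and its chromatin was precipitated through the tag, with an antibody against GFP, per the sample descriptions. The antibody field of the same labels names Fer3 instead. There was no second condition, and a peak from a whole embryo does not say which cells carried it.

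Ecdysone is the steroid hormone that times moulting, metamorphosis and parts of embryogenesis in insects. It acts through a heterodimer of the nuclear receptors EcR and Usp, which switches on early genes such as br, Eip75B and Eip74EF. Their products, with further nuclear receptors such as ftz-f1 and Hr39, pass the hormone pulse on to later genes. Several of these genes are long and carry alternative starts that give different protein isoforms.

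Each peak is given by its summit on dm6 and by its height, the signal value that the authors deposited, whose scale is undefined in the sources. Ranks run from 1 for the highest peak of a list. The reproducible list was thresholded by the authors for agreement between replicates, and it held exactly the 5636 highest of 30000 pooled peaks. Each replicate list also held 30000 peaks, and heights are read only within a list. Sequencing depth is unknown, since no list holds read counts.

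The bases under the summits are shown first for 10 of the 35 peaks, chosen to cover most of the genes, a start or an intron, and each motif found. Each is the summit base with 50 bp on either side, on the dm6 plus strand, 5′ to 3′. Capitals mark CANNTG (the usp, Hr38 and Hr39 windows, and the Eip75B windows between the RG and RC starts), GAGAG (the Eip75B RC start and Hr78) and ATGGCGC (the Eip75B intron windows).
usp, start of the RA transcript, chrX:2041373-2041473: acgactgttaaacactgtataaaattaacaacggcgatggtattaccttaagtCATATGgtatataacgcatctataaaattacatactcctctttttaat
br, intron, chrX:1618792-1618892: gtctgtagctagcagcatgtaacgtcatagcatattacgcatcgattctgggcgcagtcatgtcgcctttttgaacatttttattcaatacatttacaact
Eip75B, start of the RC transcript, chr3L:17999736-17999836: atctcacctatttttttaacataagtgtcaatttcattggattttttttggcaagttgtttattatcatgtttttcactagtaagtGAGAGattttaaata
Eip75B, intron between the RG and RC starts, highest peak there, chr3L:18019758-18019858: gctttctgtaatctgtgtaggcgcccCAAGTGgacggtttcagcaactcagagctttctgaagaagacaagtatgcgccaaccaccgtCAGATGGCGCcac
Eip75B, intron between the RG and RC starts, lower peak, chr3L:18016210-18016310: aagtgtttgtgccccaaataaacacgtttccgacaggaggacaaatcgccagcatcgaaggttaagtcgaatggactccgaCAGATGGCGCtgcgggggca
Eip75B, intron downstream of the RC start, chr3L:17988273-17988373: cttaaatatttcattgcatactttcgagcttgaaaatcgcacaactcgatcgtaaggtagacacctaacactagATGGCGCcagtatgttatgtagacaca
ftz-f1, intron, chr3L:18789765-18789865: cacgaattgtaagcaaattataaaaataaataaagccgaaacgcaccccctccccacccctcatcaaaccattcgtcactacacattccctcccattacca
Hr38, upstream of the start, chr2L:20715188-20715288: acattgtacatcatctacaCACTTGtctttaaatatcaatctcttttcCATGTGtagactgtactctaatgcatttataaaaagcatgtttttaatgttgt
Hr39, downstream flank, chr2L:21260957-21261057: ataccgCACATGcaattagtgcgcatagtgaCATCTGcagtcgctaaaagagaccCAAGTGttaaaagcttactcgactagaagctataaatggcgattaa
Hr78, at a start, chr3L:21497013-21497113: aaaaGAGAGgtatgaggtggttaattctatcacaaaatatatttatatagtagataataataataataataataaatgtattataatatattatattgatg

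CANNTG is the E-box, the type of site that basic helix-loop-helix proteins bind. Of the 35 summit windows, 9 held it (25.7%), against 33.9% of all 5636 reproducible summit windows. The Hr39 window held 3 E-boxes and the Hr38 window 2, while those of br, ftz-f1 and Hr78 printed above held none. GAGAG, the core letters of GAGA factor sites, was in 5 windows (14.3%), against 8.96% of all. GAGAG can overlap itself.

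Letters that nuclear receptors bind were searched in the same windows, on both strands. AGGTCA, the core hexamer of many nuclear receptor sites, was in none of the 35, against 1.86% of all windows. CAAGGTCA, the extended form bound by the ftz-f1 class, which contains AGGTCA, was in none, against 0.177%. The inverted repeat ecdysone response element was in none, against 0.0177%, which is 1 window of 5636. TATCGATA, the DREF site, was in none (1.51% of all) and CAGGTAG, the Zelda site, in none (0.444%). A count of 0 among 35 windows allows a share of up to 8.57% when set at 3 windows, or 10% by the exact 95% interval, so shares of this size were not detectable here.

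The heptamer ATGGCGC was looked for after the sequences had been seen. It was in 3 windows (8.57%), against 1.15% of all 5636, and all 3 lie in Eip75B introns. At 18016260 and 18019808 it shares the letters ATG with an E-box, CAGATG. The GC content of the 35 windows was 36.3% ± 9.95 (SD over windows), against 32.8% ± 9.29 over all reproducible windows.

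A reproducible summit lay in the window of 9 of the 9 genes, against 54.0% of protein-coding genes. Longer windows hold more peaks. Among genes of at least 20 kb, 7 of 7 members had such a summit, against 72.3% of the 1020 genes of that length. The 35 peaks ranked from 575 to 5569 with a median of 3120, and their signal values ran from 127 to 643. Their median signal was 206, against 224 over the whole list, and 17 of the 35 were in the higher-ranked part of that list cut at its middle.

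**Figure D1:**
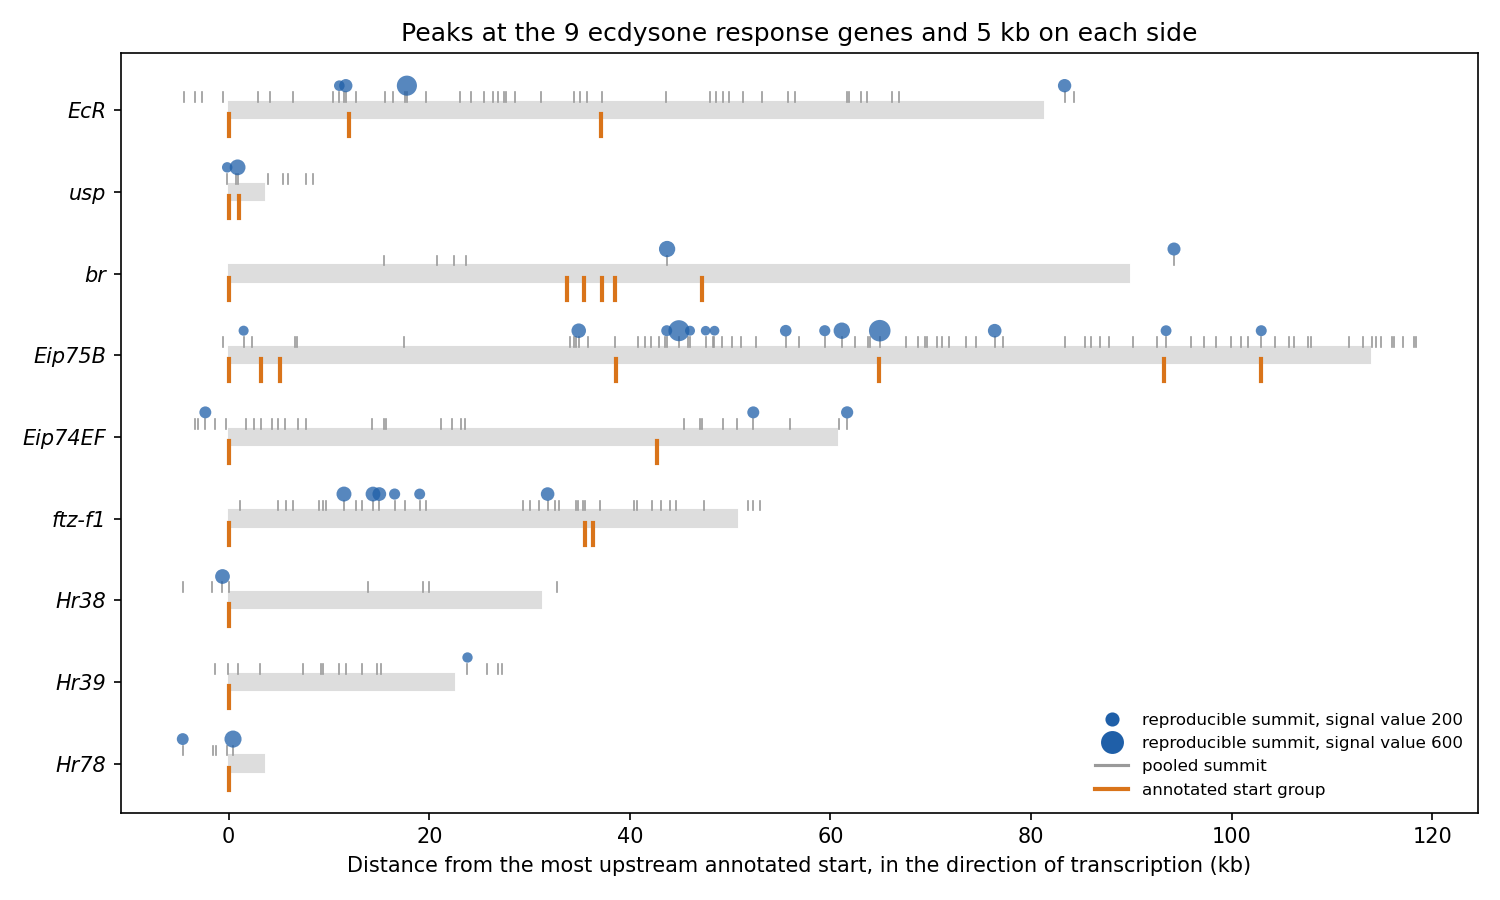
Reproducible summits along each gene window, drawn to scale with transcription direction and annotated starts. The horizontal axis is distance in kb from the most upstream annotated start. Each dot is a reproducible summit, larger for a higher signal value. Grey ticks are pooled summits and orange ticks are annotated starts. Eip75B carries 14 of the 35 dots, 9 of them in a 21.2 kb stretch, and br carries 2.

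EcR encodes the hormone-binding receptor (FBgn0000546, 2R:6087873-6169087, minus strand). It had 4 reproducible peaks. The highest, at 6151321 in an intron, had a signal value of 560 and rank 746. It lay 5808 bp downstream of the start shared by the RD and RE transcripts, and ranked 425 in replicate 1 (signal 290) and 1016 in replicate 2 (signal 285). No other of the 35 peaks ranked higher in replicate 1.

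The RD and RE start of EcR had 2 further reproducible summits close upstream of it. The summit at 6157410 lay 281 bp upstream with signal 243 (rank 2544, and 2017 and 3186 in replicates 1 and 2). The summit at 6158059 lay 930 bp upstream with signal 156 (rank 4372, and 5353 and 3897). The RB start had a weaker peak, with a pooled summit of rank 7963 lying 39 bp from an RB-group start. The RA start had no pooled summit within 500 bp. The nearest, of rank 9999, lay 531 bp upstream of it, inside the gene tRNA:Arg-ACG-1-3. The remaining reproducible peak, at 6085745, lay 2128 bp past the 3′ end of EcR and 120 bp from the start of Ars2, with signal 247 and rank 2502. It overlapped a replicate 2 peak of rank 2734 and no replicate 1 peak.

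usp encodes the RXR-type partner of EcR (FBgn0003964, X:2038798-2042311, minus strand). It is a short gene of 3.51 kb, and both of its starts had a reproducible summit. The summit at 2041423 lay 111 bp upstream of the RA start, with signal 345 and rank 1570, and ranked 1752 in replicate 1 (signal 121) and 1554 in replicate 2 (signal 221). The summit at 2042460 lay 149 bp upstream of the RB start, with signal 151 and rank 4545, and ranked 5772 (signal 47.1) and 4270 (signal 104). The replicates thus placed the RA start peak well above the RB start peak. The gene Actn also spans the RA start peak. The RB start peak lies in CG4313, and a start of Actn is also 149 bp from it. Neither peak can therefore be assigned to usp alone. In the 5636 highest peaks of replicate 1 alone, the RB start peak, at rank 5772, was not included.

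br, the Broad zinc finger factors, is an early gene of 89.7 kb with 6 start groups (FBgn0283451, X:1575132-1664869, plus strand). None of these starts had a reproducible or pooled summit within 2 kb. The nearest summit in the pooled list lay 3466 bp upstream of the RM start, and the nearest in either replicate list lay 3401 bp from a start. That pooled summit, at 1618842, is also reproducible, with signal 367, rank 1432, and ranks 1657 (signal 126) and 1363 (signal 240) in replicates 1 and 2. It lies in introns of both br and Mur2B and is nearer to the Mur2B start, at 687 bp. The other reproducible peak, at 1669381 with signal 235, lay 4512 bp past the 3′ end and 84 bp from the CG3740 start. The br window of 99.7 kb held 6 pooled peaks in all, the fewest per length of the 9.

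Eip75B encodes E75, a haem-binding nuclear receptor and early gene product (FBgn0000568, 3L:17950953-18064696, minus strand). It had 14 reproducible peaks, all inside the gene, and 77 pooled peaks, 72 in replicate 1 and 82 in replicate 2. Of its 7 starts, 3 had a reproducible summit within 500 bp. At the RC start, a summit 35 bp downstream (17999786) had signal 643 and rank 575, the highest of the 35 peaks by pooled rank. It ranked 490 in replicate 1 (signal 267) and 641 in replicate 2 (signal 381). At the RD start a summit 67 bp downstream (17961747) had signal 167 and rank 4045. At the RA start a summit 202 bp downstream (17971237) had signal 163 and rank 4190. These were low in replicate 1, at ranks 5405 and 6175, and higher in replicate 2, at 2885 and 3274.

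The RG, RF, RE and RB starts of Eip75B had no reproducible summit within 500 bp. The nearest pooled summit to the RG start lay 134 bp upstream at rank 18481, and that to the RF start 589 bp upstream at rank 12065. Both fall below the 5636 peaks of the reproducible list. The RF one had a deposited q of at most 0.05, and the RG one did not.

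From the RC start towards the RG start lay a run of 9 reproducible summits in 21.2 kb, 18.7% of the gene's length, among 19 pooled summits. Only its first member is at a start. The highest of the other 8, at 18019808, had signal 612 and rank 639, and lay 6224 bp downstream of the RG start. It ranked 672 in replicate 1 (signal 224) and 602 in replicate 2 (signal 393), close to the RC start peak in both. The summit at 18003569 had signal 371 and rank 1400, with ranks 1231 and 1591. The remaining 6 of the run had signal values from 127 to 187. Outside the run, the intron summits at 17988323 and 18029796 had signals of 257 and 292 with ranks 2362 and 1995, and the summit at 18063209 had signal 140 and rank 4991. Thus 2 Eip75B peaks stood well above the gene's other 12, and both replicates ranked them so.

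Eip74EF encodes an ETS-domain early factor (FBgn0000567, 3L:17558672-17619325, minus strand). It had 3 reproducible peaks of similar height, with signals of 206, 200 and 197 and ranks 3120, 3244 and 3299. Only the second, at 17567022, lay in the gene, in an intron 9298 bp downstream of the RB and RD start. The first, at 17557664, lay 1008 bp past the 3′ end and 124 bp from the CycT start. The last, at 17621654, lay 2329 bp upstream of the gene and 29 bp from the Vps60 start. Neither Eip74EF start had a reproducible summit within 500 bp, and a pooled summit of rank 10400 lay 243 bp upstream of the RA start.

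ftz-f1 encodes a nuclear receptor of the NR5A class that acts as a competence factor between hormone pulses (FBgn0001078, 3L:18750607-18801309, minus strand). It had 6 reproducible peaks, all in introns and none within 500 bp of its 3 start groups. Their signals were 309, 303, 261, 255, 172 and 166, at ranks from 1837 to 4100. The highest 2, at 18789815 and 18786922, ranked 1936 and 1865 in replicate 1 (signals 111 and 115) and 1827 and 1870 in replicate 2 (signals 198 and 194). The run from 18782267 to 18789815 held 5 of the 6 in 7.55 kb, which is 14.9% of the gene's length, and 8 pooled summits. Those 5 also lie inside the non-coding gene lncRNA:CR45939. The RC and RD start had a pooled summit 4 bp upstream of it, at rank 14001, well below the intron peaks.

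Hr39, the other NR5A receptor (FBgn0261239, 2L:21237250-21259675, plus strand), had 1 reproducible peak, and it was not in the gene. That summit, at 21261007, lay 1332 bp past the 3′ end and 161 bp from the start of l(2)k14505, with signal 148 and rank 4661. It overlapped a replicate 2 peak of rank 4900 and no replicate 1 peak. At the Hr39 start itself, a pooled summit lay 22 bp upstream at rank 6716, below the 5636 peaks of the reproducible list. The nearest replicate 1 summit to that start lay 34 bp away at rank 19465, and the nearest replicate 2 summit 11 bp away at rank 7004.

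Hr38 encodes the NR4A receptor, an orphan partner of Usp (FBgn0014859, 2L:20683462-20714588, minus strand). Its 1 reproducible summit, at 20715238, lay in intergenic sequence 650 bp upstream of its start. The signal was 301 at rank 1907, and the ranks were 2457 in replicate 1 (signal 94.1) and 1674 in replicate 2 (signal 210.0). The start itself had only a weak pooled summit, 43 bp downstream at rank 14021. The replicates differed here. Replicate 1 had 9 peaks in the window and replicate 2 had 3, and of the 8 pooled peaks 2 were overlapped in both replicates and 4 in replicate 1 only. Among these 4 were the next highest pooled summits, at 20681879 (rank 5864) and 20700730 (rank 7399). The first of these lies in the downstream flank, 33 bp from the start of Cen, and the other in an Hr38 intron.

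Hr78 encodes an orphan nuclear receptor (FBgn0015239, 3L:21494019-21497494, minus strand). Its summit at 21497063 lay 120 bp downstream of a start, inside the gene and the antisense gene asRNA:CR43933. It had signal 404 and rank 1226, and ranked 1353 in replicate 1 (signal 144) and 1102 in replicate 2 (signal 271). The other reproducible summit, at 21502076, had signal 195 and rank 3357, and lay 4582 bp upstream of Hr78 and 655 bp from the start of Est-Q. By signal, the Hr78 start peak came next after the Eip75B and EcR peaks above 500.

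By feature, 22 of the 35 summits lay in introns (62.9%, exact 95% interval 44.9 to 78.5), against 38.1% of all reproducible summits. Eip75B and ftz-f1 held 17 of these 22, out of their 20 summits, and the other 7 genes had 5 of 15 in introns (33.3%). The intron summit of Hr78, 4582 bp upstream of that gene, lies in an intron of another gene. A further 12 lay in promoters, within 500 bp of any protein-coding start (34.3%, 19.1 to 52.2), against 44.9%. The remaining summit was intergenic, and none lay in exons or UTRs away from starts. These intervals cover counting error only, and peaks of a gene share their place. Of the 12 promoter summits, 7 lay at a member's own start and 5 at the start of another gene only, namely Ars2, CG3740, CycT, Vps60 and l(2)k14505. Near the edge of the windows, the Hr78 and br flank summits at 4582 and 4512 bp were the farthest inside, and the nearest outside lay 5881 bp from Eip74EF at rank 3036, with anchor the nearest start. Of the 35, 19 lay over 5 kb from every start of their own gene.

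Counted by start, 7 of the 26 start groups had a reproducible summit within 500 bp (26.9%, 11.6 to 47.8), against 19.8% of all start groups. Starts within 500 bp of each other were taken as 1 group. Counted by gene, 4 of 9 had such a start (44.4%, 13.7 to 78.8), against 22.6% of protein-coding genes. In the pooled list 13 of 26 start groups had a summit within 500 bp, against 46.5%. In replicate 1 the count was 13, against 41.8%, and in replicate 2 it was 14, against 50.8%. The intervals of the reproducible shares include the shares over all start groups and all genes. They are wide, start groups of a gene are not independent, and no test was made.

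**Figure D2:**
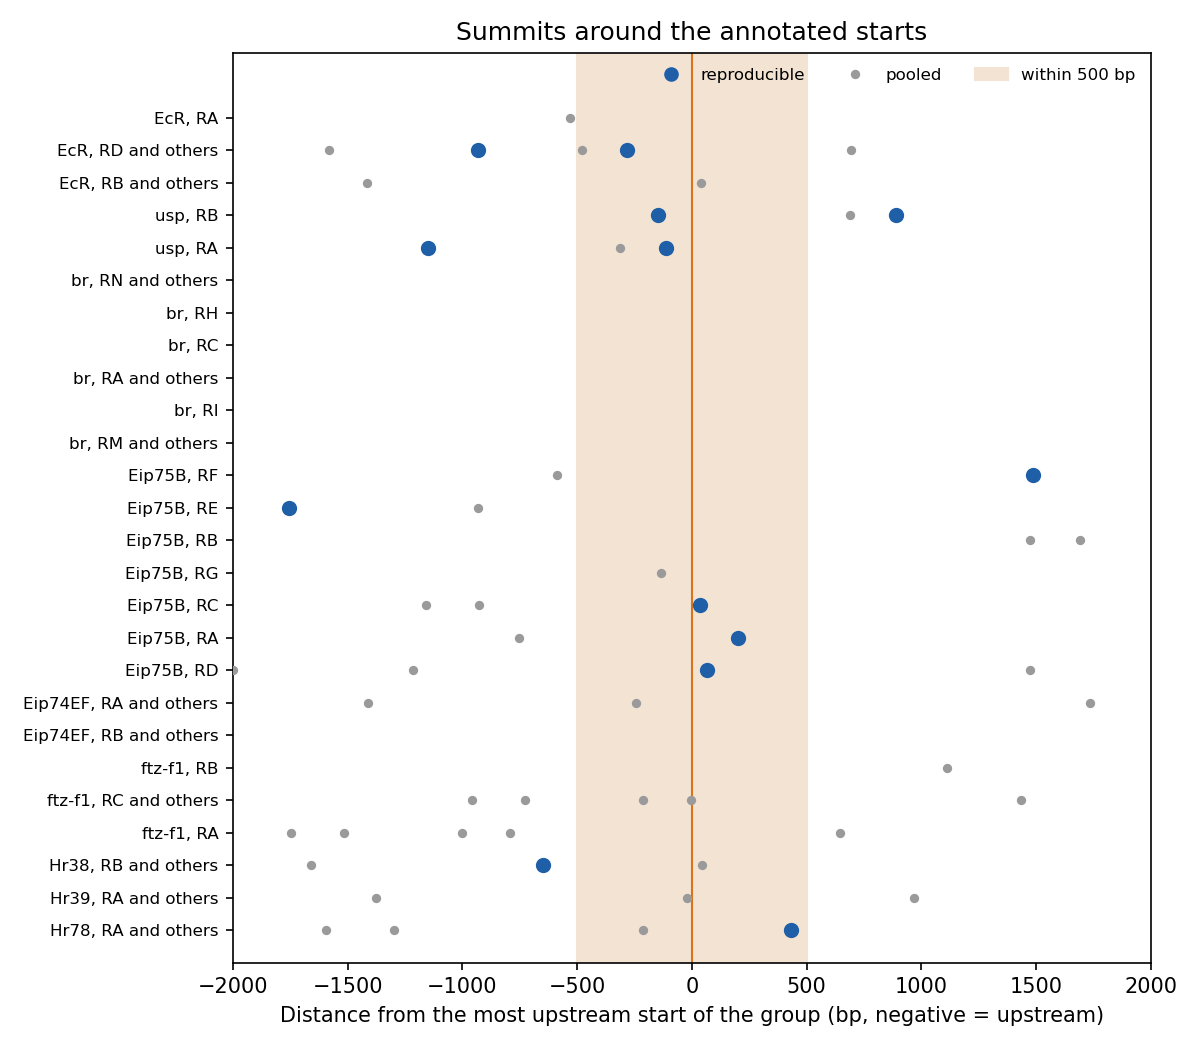
Summits within 2 kb of each of the 26 start groups, by distance in bp from the most upstream start of the group (negative is upstream). Large points are reproducible summits and small points are the other pooled summits; the 6 br rows are empty, and the Hr78 summit, 120 bp from its nearest start, is drawn from the most upstream one.

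Over the full lists, the 9 windows held 233 pooled peaks, 199 replicate 1 peaks and 248 replicate 2 peaks. Of the pooled peaks, 198 lay below the reproducible threshold. The density of all pooled peaks was 4.26 per 10 kb, against 2.24 over the arms. That of the reproducible peaks was 0.64 against 0.421, and it differed by gene. Eip75B and ftz-f1 held 20 of the 35 peaks, at 1.13 and 0.988 per 10 kb, and usp and Hr78 had 1.48 each. EcR and Eip74EF, at 0.439 and 0.425, were near the level over the arms. Hr39, Hr38 and br, at 0.308, 0.243 and 0.201, were below it. Among the 7 longer genes, pooled densities were 6.22 per 10 kb for Eip75B, 6.1 for ftz-f1, 5.15 for EcR, 4.93 for Hr39, 4.1 for Eip74EF, 1.95 for Hr38 and 0.602 for br. The median over the 1020 genes of at least 20 kb was 2.23. Of those genes, 4.9% had a higher density than Eip75B and 5.39% than ftz-f1, while 85.3% had a higher density than br. The pooled density was above that median for 5 of the 7 longer genes and below it for br and Hr38. In the reproducible list the median over the same 1020 genes was 0.304 per 10 kb. There 10% of those genes had a higher density than Eip75B and 14.1% than ftz-f1, but 38.8% exceeded EcR, 39.7% Eip74EF and 49.3% Hr39. Hr38 and br lay below that median, with 57.5% and 63.1% of those genes higher. The 2 short genes had 8 (usp) and 5 (Hr78) pooled peaks in windows of 13.5 kb each.

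**Figure D3:**
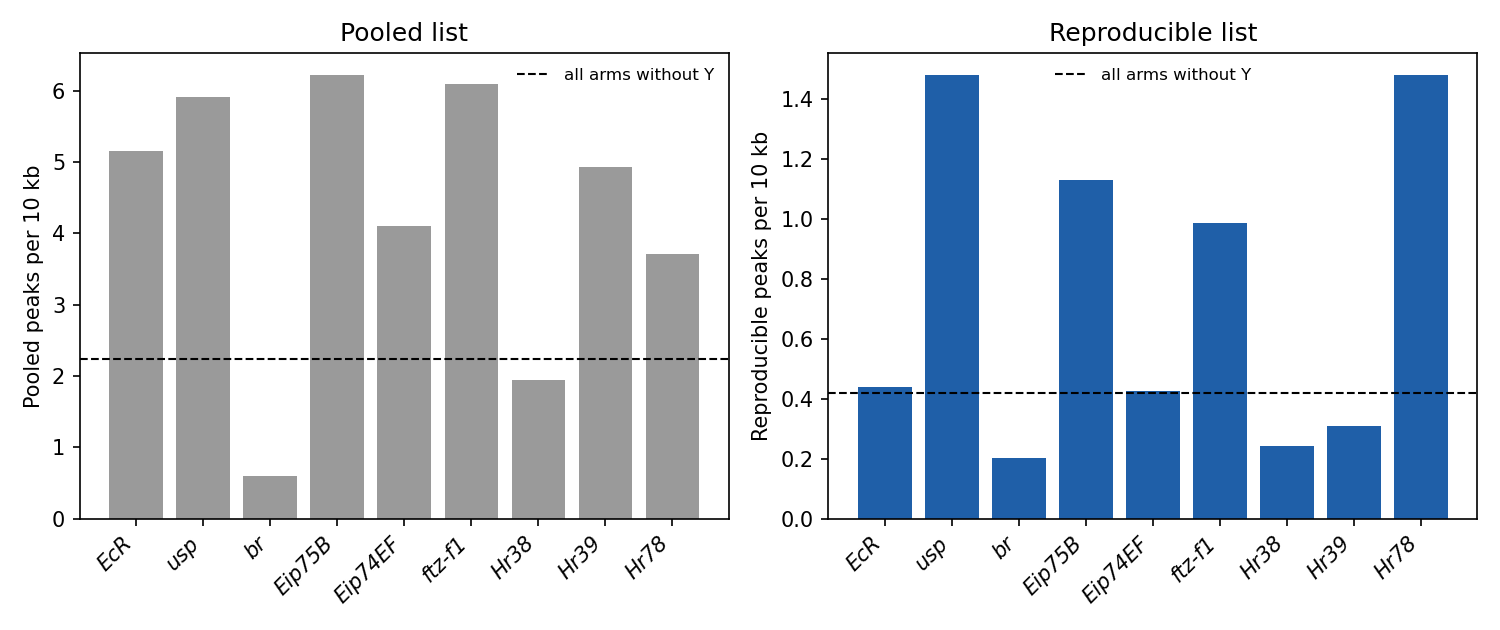
Peaks per 10 kb of window (bars from 0) for each gene in the reproducible and pooled lists, with the level over all arms. Pooled densities run from 0.602 for br to 6.22 for Eip75B, against 2.24 over the arms.

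Of the 233 pooled peaks, 115 had a deposited q of at most 0.05 (49.4%), against 44.5% of the whole pooled list. The shares were 35.7% in replicate 1, against 29.7%, and 56.9% in replicate 2, against 57.5%. Both replicates overlapped 147 of the 233 (63.1%), against 57.8% of the whole pooled list. Of the rest, replicate 1 alone overlapped 26, replicate 2 alone 51 and neither 9.

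Of the 35 reproducible peaks, 33 were overlapped by a peak in both replicates (94.3%, 80.8 to 99.3), against 95.5% of all. The exceptions were the Ars2 and l(2)k14505 start peaks, in the flanks of EcR and Hr39, which replicate 1 lacked. In 31 of the 33 the 2 ranks were within 2-fold of each other, and in 20 of them the rank was higher in replicate 2. The summits of the 33 differed by a median of 22 bp between replicates and by at most 93 bp.

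**Figure D4:**
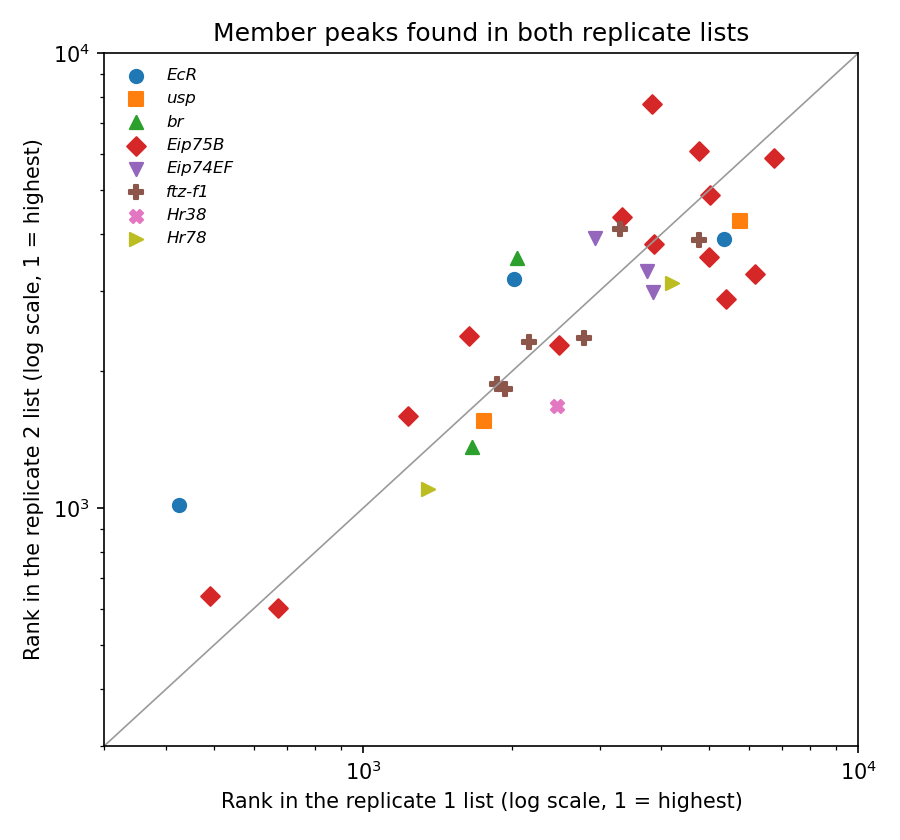
Rank in replicate 1 against rank in replicate 2, on log axes, for the 33 peaks overlapped in both. The EcR intron peak and the 2 highest Eip75B peaks rank from 425 to 672 in replicate 1, where the next ranks 1231; in replicate 2 the EcR peak, at 1016, lies beside the Hr78 start peak at 1102, and 31 of 33 lie within 2-fold of equal rank.

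Further genes of the pathway were taken from a list of 47 in 6 groups. A reproducible summit lay in the window of 30 (63.8%), against 54.0% of protein-coding genes, and 10 had one within 500 bp of an own start (21.3%), against 22.6%. By group these were 10 of 14 other nuclear receptors, 8 of 12 other induced genes and 6 of 6 receptor cofactors and juvenile hormone receptors. Hormone synthesis, turnover and transport gave 3 of 9, upstream signals 2 of 5, and the membrane receptor DopEcR 1 of 1.

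Peaks higher than any of the 35 were found at several of them. Hr3, a nuclear receptor induced after the early genes, had 4 peaks, the highest with signal 1440 at rank 117. gce, a juvenile hormone receptor, had 6, the highest with signal 1330 at rank 134. E23, an ABC transporter gene induced by the hormone, had a summit 248 bp from its start with signal 1130. Hr4, a nuclear receptor of the same cascade, had 15, the highest with signal 897 at rank 297. The nuclear receptor genes svp, tll, kni and eg had none, nor did the synthesis genes nvd, spo, spok, sro and dib, or Eip93F and Blimp-1. Several of the best peaks lie at a neighbouring gene's start, among them those of ERR at Atg18a and of Ptth at cold.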

How the data were processed

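The narrowPeak lists on dm6 were used, as the authors deposited them. Per the deposited file descriptions, both replicate lists used a common control alignment, the pooled list came from both alignments, and the reproducible list from those 3. Which aligner and peak caller were run is not given in the sources used here. Columns used were the authors' signal value, the deposited −log10 q and the deposited summit offset. Both served only to rank, filter and describe peaks inside their own list.

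Summits were placed on Ensembl release 115 genes (BDGP 6.54). A promoter is the sequence within 500 bp of any protein-coding start, on either side. Summit windows (50 bp to each side) were read from the Release 6 genome. Peaks were named as every reproducible summit in a member's window, with the highest of the pathway list. The members and lists were chosen with earlier results of these data known; Eip71CD, Eip55E and phm had no single annotation match and were left out. No test was made. Exact Clopper-Pearson 95% intervals cover counting error only. There were 34 alternatives. The steps were tested on simulated data, using scipy 1.17.1, pandas 2.3.3 and numpy 2.4.6 in Python 3.11.15, with figures by matplotlib 3.10.9.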

Additional observations from a re-analysis of the deposited data

How the results depend on the processing

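Of 34 alternatives, 29 kept their value. Counts and densities had to stay within 1.5 times, and the share overlapped in both replicates within its interval. In the higher-ranked part of the reproducible list, the 9 windows held 17 peaks in place of 35. The density was 0.311 per 10 kb in place of 0.64. Start groups with a summit numbered 4 in place of 7, and no peak was left for Eip74EF or Hr39. That part is the list cut at its middle, so counts and densities over the arms fall as well. Within gene bodies alone, the share overlapped in both replicates was 100%, and with at least 50% reciprocal overlap it was 77.1%, in place of 94.3%. With the highest 5636 peaks of a single replicate, all 9 genes kept a summit, the peak count was 33 without replicate 1 and 41 without replicate 2, the density 0.604 to 0.75 per 10 kb, and the start groups 7 and 6. Eip75B then had 11 and 17 peaks, while Hr38 rose from 1 to 3 and usp fell from 2 to 1 without replicate 2, and Hr39 rose from 1 to 2 without replicate 1. A 2 kb window gave 31 peaks, a 10 kb window 38, and gene bodies alone 27 in 7 genes. Depth is unknown, so a missing peak cannot be told from an undetected one, and the long lists end at 30000 by length. No paired analysis was possible because both samples belong to 1 group.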

Other observations

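By number of reproducible summits in the window, Eip75B, with 14, was exceeded by 7 of the 13968 protein-coding genes. These were kirre with 22, CG1677 with 20, ush with 17, sbb and shn with 16 each, and CHES-1-like and Hr4 with 15 each. The gene tara equalled it with 14. The counts are not adjusted for gene length. Hr4 is another nuclear receptor gene of the ecdysone cascade.

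Both replicates listed a peak at the RB start of ftz-f1 that the pooled list lacked. The replicate 1 summit lay 109 bp upstream of that start at rank 5522, and the replicate 2 summit 245 bp upstream at rank 6074. The nearest pooled summit was 1110 bp away. Of 7062 pairs of overlapping replicate peaks that both ranked within 10000, 33 had no pooled peak over either member (0.467%), and this was the only such pair in the 9 windows.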
